A study of Mus musculus with 9 samples.

Results

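Sertoli cells were followed in the testis transcriptome through 9 genes: the transcription factor genes Sox9, Wt1 and Gata1, the follicle-stimulating hormone (FSH) receptor gene Fshr, the hormone genes Amh, Inha, Inhba and Inhbb, and the homeobox gene Rhox5. They were chosen by gene symbol, each symbol matched a single row, and they are 9 of the 22337 genes in the deposited table. RNA came from whole testes of 3-week-old mice of 3 genotypes, with 3 libraries per genotype: wild-type (WT-WT in the labels), Piwil4WT/R264W (WT-KI) and Piwil4R264W/R264W (KI-KI). The R264W allele was made by CRISPR-Cas9 in C57BL/6 zygotes and replaces arginine by tryptophan in the PAZ domain of PIWIL4, a PIWI protein that guides transposon silencing in germ cells. The allele is a knock-in of the germ line and is not restricted to a cell type. How many founder lines were used, and whether each library came from a separate mouse, were not given in the sources used here, so the p-values measure the spread between these libraries. A gene-level table does not show the substitution, and the genotype labels were taken as given.

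Sertoli cells are the supporting cells of the seminiferous tubule, and they surround the germ cells from the spermatogonium to the elongating spermatid. SOX9 sets the Sertoli fate in the fetal gonad, WT1 maintains it, and GATA1 appears in Sertoli cells around the start of spermatogenesis. FSH from the pituitary acts on them through its receptor, and they answer with inhibin, a dimer of the alpha subunit (Inha) with a beta subunit (Inhba or Inhbb) that restrains FSH release; dimers of beta subunits alone are activins. Anti-Müllerian hormone (Amh) is a product of immature Sertoli cells that declines as they mature, whereas Rhox5, a reproductive homeobox gene on the X chromosome, is known to respond to androgen in Sertoli cells. Mouse Sertoli cells stop dividing in early postnatal life, in the course of the first wave of spermatogenesis, while the germ cells go on multiplying, and at 3 weeks the most advanced tubules are just forming round spermatids. In RNA of a whole testis, fewer Sertoli cells and less RNA per Sertoli cell cannot be told apart.

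Library totals ran from 17964135 to 24279056 estimated counts, so that a floor of 3 counts stood at 0.122 to 0.172 CPM (counts scaled to a common library size and composition). All 16 other Sertoli genes kept as a reference list were detected, with summed levels of 2325 to 3368 CPM per testis, and none was at 0 in all testes. A round spermatid score, in which the log2 CPM of 20 genes of these cells was averaged, placed each testis in the first wave. The score was 6.09, 2.61 and 1.29 in wild-type replicates 1, 2 and 3. In Piwil4WT/R264W testes it was 5.08, 3.52 and 0.80, and in Piwil4R264W/R264W testes it was 2.39, 3.75 and 5.88. The scores overlapped between the genotypes, with group means of 3.33 ± 2.48, 3.13 ± 2.17 and 4.0 ± 1.76 (SD, n = 3 each). A score of 18 spermatocyte genes moved little, from 8.62 to 8.79. It averages over genes that went both ways, since 5 of them fell and 7 rose with the round spermatid score. The 7 genes of the epididymis summed to 54.2 CPM in Piwil4R264W/R264W replicate 1 and to at most 11.9 CPM in the other libraries (epididymal Crisp1 stood at 39.5 CPM there, 5.34 CPM in wild-type replicate 2 and 4.36 CPM in Piwil4WT/R264W replicate 2), and those of skeletal muscle to at most 3.70 CPM in any library.

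The upstream sequences of Fshr and Rhox5 are shown because these genes had slopes of opposite direction on the round spermatid score, both past the threshold given below. RefSeq promoters of GRCm38.p6 were matched for 6 of the 9 genes, and the 250 bases before the transcription start are printed 5′ to 3′ on the strand of the gene. Fshr lies on the minus strand (chr17:89200676-89200925), and capitals mark its 2 E-boxes (CANNTG), 190 and 61 bases before the start. Rhox5 lies on the plus strand (chrX:37754358-37754607), and capitals mark its 3 E-boxes, 157, 101 and 63 bases before the start.
Fshr: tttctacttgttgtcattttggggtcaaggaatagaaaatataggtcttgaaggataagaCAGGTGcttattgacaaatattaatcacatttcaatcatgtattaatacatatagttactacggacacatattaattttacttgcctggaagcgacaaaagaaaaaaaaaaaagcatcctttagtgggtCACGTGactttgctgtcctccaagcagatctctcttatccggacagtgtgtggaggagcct
Rhox5: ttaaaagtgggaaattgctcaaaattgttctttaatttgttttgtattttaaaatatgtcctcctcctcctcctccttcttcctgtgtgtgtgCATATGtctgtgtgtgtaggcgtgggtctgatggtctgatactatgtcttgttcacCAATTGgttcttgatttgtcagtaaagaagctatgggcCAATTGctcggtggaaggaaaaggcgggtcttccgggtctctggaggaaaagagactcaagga
On either strand, CANNTG was present in 66.2% of 32851 RefSeq promoters of this length, so its presence in both genes is common. Of the 7 motifs searched, the SOX core ACAAT, present in 27.7% of promoters, also occurred in Rhox5, 227 bases before the start, and not in these 250 bases of Fshr. The GATA motif spelled AGATAA, its other spelling TGATAA, the steroidogenic factor motif AAGGTCA, the cAMP response element TGACGTCA and its variant spelling TGCGTCA had no match in the window of either gene. These matches describe letters in a window and are not evidence of binding.

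Among the identity genes, Sox9 stood at 22.3, 33.6 and 33.8 CPM in wild-type replicates 1, 2 and 3. It stood at 38.1, 26.0 and 34.7 CPM in Piwil4WT/R264W testes and at 32.4, 25.1 and 21.4 CPM in Piwil4R264W/R264W testes. The lowest values were in Piwil4R264W/R264W replicate 3 and wild-type replicate 1, the libraries with the highest round spermatid scores, and all 3 groups overlapped. Wt1, which maintains the Sertoli fate, stood at 56.6, 72.9 and 82.0 CPM in wild-type, 74.9, 64.6 and 80.0 CPM in Piwil4WT/R264W and 70.7, 68.7 and 61.7 CPM in Piwil4R264W/R264W testes. Its groups overlapped, and its whole range across the 9 testes was 1.45-fold. Mesothelium also expresses Wt1, and its 5 marker genes summed to 6.80 to 24.2 CPM, with none at 0 in all testes. Muc16 made up much of the higher sums, and the other 4 markers summed to 4.29 to 8.48 CPM in wild-type, 6.31 to 8.38 CPM in Piwil4WT/R264W and 7.72 to 11.6 CPM in Piwil4R264W/R264W testes. The part of mesothelium in the Wt1 level was not tested.

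Gata1 stood at 17.6, 28.0 and 25.8 CPM in wild-type, at 28.7, 24.8 and 27.5 CPM in Piwil4WT/R264W and at 21.6, 23.1 and 22.3 CPM in Piwil4R264W/R264W testes. The Piwil4R264W/R264W values all lay below the Piwil4WT/R264W values and inside the wild-type range. Gata1 is also an erythroid gene, and the 7 erythroid markers summed to 131 to 361 CPM in wild-type, 103 to 224 CPM in Piwil4WT/R264W and 82.9 to 195 CPM in Piwil4R264W/R264W testes, with none at 0 in all testes. Their part in the Gata1 level was not tested.

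Fshr was a low transcript, at 4.93, 9.12 and 8.92 CPM in wild-type, 8.20, 7.99 and 9.04 CPM in Piwil4WT/R264W and 9.75, 6.67 and 6.47 CPM in Piwil4R264W/R264W testes. The lowest value, in wild-type replicate 1, was lower than the highest, in Piwil4R264W/R264W replicate 1, by a ratio of 1.97, and the genotypes overlapped. Amh, the hormone of immature Sertoli cells, stood at 11.8, 16.9 and 19.7 CPM in wild-type, 20.6, 15.8 and 19.7 CPM in Piwil4WT/R264W and 17.0, 17.5 and 15.4 CPM in Piwil4R264W/R264W testes. Its Piwil4R264W/R264W values were the tightest (16.7 ± 1.12, SD, n = 3) and lay inside the wild-type range.

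Of the inhibin subunit genes, Inha, the alpha subunit, stood at 135, 181 and 176 CPM in wild-type, 205, 170 and 176 CPM in Piwil4WT/R264W and 166, 182 and 187 CPM in Piwil4R264W/R264W testes. Inhbb, the beta B subunit, stood at 48.0, 67.1 and 66.6 CPM, at 88.4, 62.1 and 78.2 CPM and at 68.2, 69.5 and 61.6 CPM in the same order of genotypes. For both subunits wild-type replicate 1 was the lowest testis and Piwil4WT/R264W replicate 1 the highest, and the genotypes overlapped. Inhba, the beta A subunit, was near the limit of precision, with 25 to 77 counts per library. It stood at 1.16, 2.25 and 3.71 CPM in wild-type, 2.6, 2.07 and 2.57 CPM in Piwil4WT/R264W and 1.83, 1.59 and 2.12 CPM in Piwil4R264W/R264W testes, and the wild-type testes alone spanned 3.19-fold.

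Rhox5, the androgen-responsive homeobox gene, stood at 12.1, 8.48 and 8.10 CPM in wild-type, 10.3, 12.96 and 8.56 CPM in Piwil4WT/R264W and 12.5, 14.3 and 15.3 CPM in Piwil4R264W/R264W testes. All Piwil4R264W/R264W values lay above all wild-type values, and they overlapped the Piwil4WT/R264W range. By CPM, wild-type replicate 1 was the lowest of the 9 testes for 7 genes (Wt1, Gata1, Amh, Fshr, Inha, Inhba and Inhbb). Piwil4WT/R264W replicate 1 was the highest by CPM for 5 (Sox9, Gata1, Amh, Inha and Inhbb). For Rhox5 the lowest testis was wild-type replicate 3 and the highest Piwil4R264W/R264W replicate 3.

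**Figure D1:**
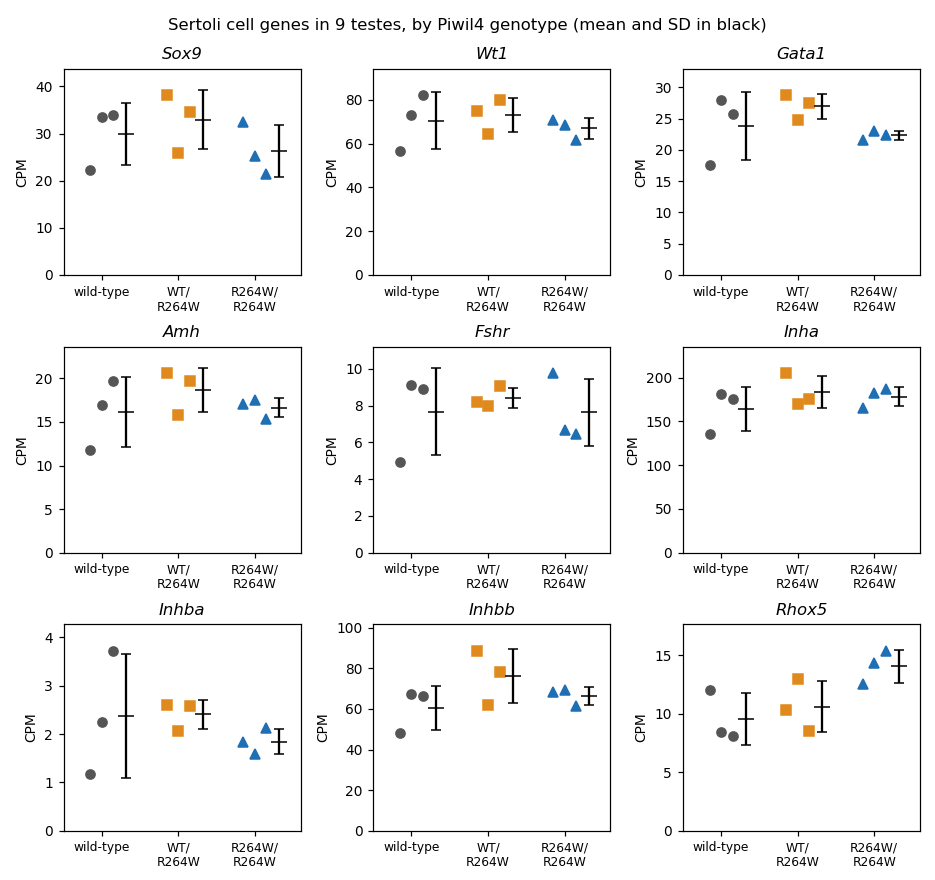
Level of each of the 9 Sertoli cell genes in CPM (vertical axis, from 0) in each testis, with 3 libraries per Piwil4 genotype in replicate order along the horizontal axis and the group mean ± SD in black. The genotypes overlap for most genes, while the 3 Piwil4R264W/R264W values of Rhox5 (12.5 to 15.3 CPM) lie above the wild-type values (8.10 to 12.1 CPM).

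Levels of the 9 genes were compared with each other only per transcript length, as mean FPKM over the 9 testes (read fragments scaled for transcript length and library size). Inha was first at 116 ± 14.3 FPKM and Wt1 second at 31.5 ± 4.68 FPKM (SD, n = 9 each), each above the next gene in 9 of 9 testes with no overlap of ranges. Gata1 (16.0 FPKM), Inhbb (15.6 FPKM), Rhox5 (12.4 FPKM) and Amh (10.1 FPKM) followed with overlapping ranges. Gata1 was above Inhbb in 6 of 9 testes, Inhbb above Rhox5 in 7 of 9 and Rhox5 above Amh in 5 of 9. Neighbours in this order thus changed places between testes, whereas Gata1 and Inhbb were each above Amh in every testis. Sox9 stood at 7.03 FPKM, below Amh in 9 of 9 testes although the ranges overlapped. Fshr followed at 3.28 FPKM and Inhba last at 0.49 FPKM, without overlap of ranges. The ratio of FPKM to CPM varied 1.12 to 1.20-fold between libraries for 8 genes and 2.34-fold for Inhba. The order of the testes thus depended on the unit for Inhba, and in part for other genes. By FPKM the highest testis was Piwil4WT/R264W replicate 3 for Wt1 (39.3 FPKM) and Gata1 (19.6 FPKM), which was not the case by CPM.

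Whether the genotypes differ was tested first on each pair with edgeR. No member passed an adjusted p of 0.05 in any pair, and neither did any of the 15413 to 15543 genes tested (0%). DESeq2 called 0 members in each pair and 1, 5 and 0 genes in Piwil4R264W/R264W against wild-type, Piwil4R264W/R264W against Piwil4WT/R264W and Piwil4WT/R264W against wild-type. At an unadjusted p under 0.05, edgeR and DESeq2 each gave 1 member in Piwil4R264W/R264W against wild-type (Rhox5, beside 1.26% of all genes by edgeR), 1 in Piwil4R264W/R264W against Piwil4WT/R264W (Gata1, beside 2.22%) and 0 in Piwil4WT/R264W against wild-type (beside 1.11%). The 3 comparisons share libraries and are not independent of each other.

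Rhox5 was higher by 0.56 on the log2 scale in Piwil4R264W/R264W than in wild-type testes (SE 0.19, unadjusted p = 0.026 and adjusted p = 0.9998 by edgeR), with means of 14.1 ± 1.43 and 9.55 ± 2.18 CPM. The 2 groups did not overlap, which was also the case for 2.12% of all genes in this direction and 3.56% in the other. An exact two-sided permutation test of the CPM gave p = 0.1, the smallest p that 3 against 3 libraries allow. The log2 change lay between 0.46 and 0.76 when any library was left out. Its unadjusted p by edgeR was 0.067 to 0.078 without replicate 2 or 3 of either genotype. That p was 0.0025 without wild-type replicate 1 and 0.030 without Piwil4R264W/R264W replicate 1. Without the latter, the library with the most epididymal transcripts, the log2 change was 0.64. The part of epididymal tissue in the Rhox5 level was not tested. Against Piwil4WT/R264W testes the log2 change was 0.41 (SE 0.18, adjusted p = 0.95 by edgeR), with overlapping groups. Between Piwil4WT/R264W and wild-type it was 0.15 (SE 0.23, adjusted p = 0.9998), and it turned to -0.0023 without Piwil4WT/R264W replicate 2.

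Gata1 was lower by a log2 change of -0.27 in Piwil4R264W/R264W than in Piwil4WT/R264W testes (SE 0.10, unadjusted p = 0.033 and adjusted p = 0.948 by edgeR), with means of 22.3 ± 0.741 and 27.0 ± 2.01 CPM. These groups did not overlap, as for 3.78% of all genes in this direction, and the exact two-sided permutation test gave p = 0.1. With any library left out the Gata1 change lay between -0.33 and -0.22. Its unadjusted p by edgeR was 0.020 without Piwil4WT/R264W replicate 2 and 0.067 to 0.108 without any other library. In a fit of all 9 libraries with the round spermatid score, that p was 0.115. No member was higher without overlap in that pair (3.37% of all genes were), and none separated Piwil4WT/R264W from wild-type testes (2.33% of all genes did on the higher side and 2.98% on the lower). The other 8 members differed between Piwil4R264W/R264W and wild-type by log2 changes of -0.37 to 0.13, with a smallest unadjusted p of 0.372. The median over the 9 members was -0.0050 in that pair (all genes -0.0050), -0.17 in Piwil4R264W/R264W against Piwil4WT/R264W (all genes 0.0062) and 0.15 in Piwil4WT/R264W against wild-type (all genes -0.019). The first of these medians moved with single libraries. It went to -0.21 without wild-type replicate 1 (8 of 9 members lower) and changed sign, to 0.12, without wild-type replicate 3 (7 of 9 higher). The second was -0.10 without Piwil4WT/R264W replicate 1 and -0.27 without Piwil4WT/R264W replicate 2. In the last pair all 9 members were on the higher side, but without wild-type replicate 1, the library lowest for 7 of them, 5 were higher and 4 lower, with a median of 0.0051.

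The second question was how the genes follow the first wave. edgeR was fitted to all 9 libraries with the genotype and the round spermatid score, and the slope is the log2 change in CPM per unit of score, which spanned 5.29 units. The score and the genes come from the same libraries and share one total. Every testis entered with its own score, and no groups were formed by score. Of 9 members, 2 fell with the score (Fshr and Wt1, beside 8.20% of all 15771 genes tested that fell) and 1 rose (Rhox5, beside 17.4% that rose). The other 6 had negative slopes that did not pass the test, and the median slope of the members was -0.071 against -0.011 for all genes.

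Fshr had the steepest slope, -0.13 (SE 0.041, adjusted p = 0.037), which amounts to a 0.621-fold level over the range of scores. Wt1 had a slope of -0.071 (SE 0.022, adjusted p = 0.032), or 0.770-fold over the range. Among those that did not pass, the slope was -0.087 for Sox9 (SE 0.038, adjusted p = 0.107), -0.074 for Amh (SE 0.034, adjusted p = 0.13) and -0.13 for Inhba (SE 0.077, adjusted p = 0.238). Gata1 (-0.050), Inhbb (-0.045) and Inha (-0.011) were the flattest, and Inha stood almost at the middle of all genes, with 49.9% of them below it. Rhox5 rose by 0.10 (SE 0.033, adjusted p = 0.044), 1.44-fold over the range.

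These 3 calls rested on few libraries. Leaving out wild-type replicate 1, wild-type replicate 3, Piwil4R264W/R264W replicate 1 or Piwil4R264W/R264W replicate 3 ended all 3 of them, and without wild-type replicate 1 only 5 of the 9 slopes were negative, with a median of -0.0096. Without Piwil4WT/R264W replicate 3 or Piwil4R264W/R264W replicate 2 only Fshr passed, and without wild-type replicate 2 the call of Rhox5 alone was lost (adjusted p = 0.068). Without Piwil4WT/R264W replicate 1, a testis with a high score and high Sertoli transcripts, 5 members fell (Fshr, Wt1, Sox9, Amh and Inhbb) and Rhox5 rose, in a fit where 17.0% of all genes fell and 21.2% rose. Left-out libraries put the Fshr slope between -0.17 and -0.080 and the Wt1 slope between -0.098 and -0.046, and for both genes the smallest decline was without wild-type replicate 1. The Rhox5 slope stayed positive, between 0.078 and 0.13, whichever library was left out.

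**Figure D2:**
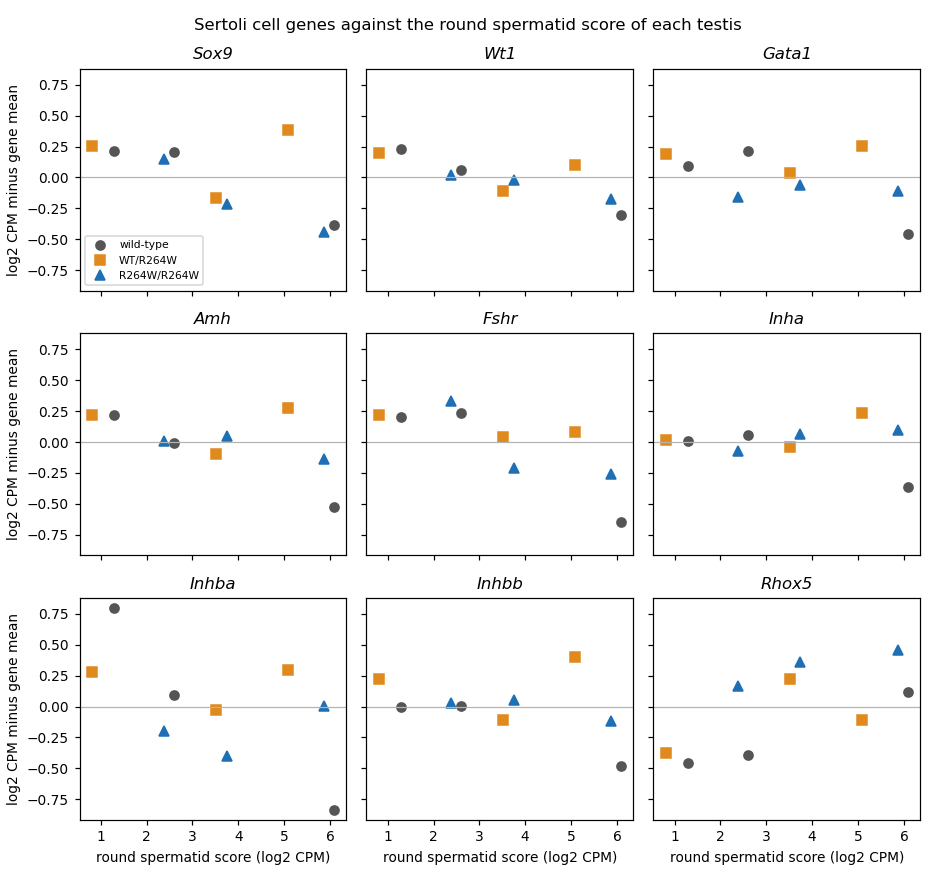
Level of each gene in each testis as log2 CPM minus the mean of that gene over the 9 testes (vertical axis) against the round spermatid score in log2 CPM (horizontal axis), with a symbol per Piwil4 genotype. Fshr and Wt1 are lowest at a score of 6.09 (wild-type replicate 1, bottom right), while at 5.08 Piwil4WT/R264W replicate 1 stays above the mean of both genes, and Rhox5 is highest at 5.88.

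In a whole testis each gene is measured as a share of all transcripts, germ cell transcripts included. The level of each gene was therefore also taken relative to other Sertoli transcripts. For this, libraries were scaled to the geometric mean of the 16 reference Sertoli genes (among them Cldn11, a tight junction gene, and Clu, a secreted chaperone). Whether these 16 genes keep a constant level per Sertoli cell was not tested. The mean log2 CPM of this list ran from 6.03 in wild-type replicate 1 to 6.42 in Piwil4WT/R264W replicate 3. With this scaling the spread between testes narrowed for 8 of the 9 members, compared with 38.0% of all genes. The SD of Wt1 over the 9 testes went from 0.174 to 0.0785 log2 units, that of Amh from 0.244 to 0.136, that of Inhbb from 0.243 to 0.150 and that of Fshr from 0.314 to 0.222. Rhox5 was the exception, and its SD went from 0.344 to 0.417 log2 units. Without wild-type replicate 1 the spread narrowed for 7 members and widened for Inha and Rhox5, and without any other library it widened for Rhox5 alone.

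Per Sertoli reference, none of the 8 other members had a slope on the score that passed the test, in either direction. Fshr kept the most negative value, -0.085 (SE 0.040, adjusted p = 0.15), followed by Inhba (-0.082), Sox9 (-0.042), Amh (-0.029) and Wt1 (-0.025). Gata1 (-0.0041) and Inhbb (2.5e-05) were close to flat and Inha was slightly positive (0.035, against a median of 0.036 for all genes). Rhox5 rose by 0.15 per unit of score (SE 0.039, adjusted p = 0.010 by edgeR), among 25.6% of all genes that rose and 0.647% that fell with this scaling. The call was lost without wild-type replicate 1 (adjusted p = 0.205), wild-type replicate 3 (0.0553) or Piwil4WT/R264W replicate 3 (0.05004), and the slope stayed between 0.11 and 0.19. Among the 16 reference genes themselves, 1 rose on this scale (Tsx, 0.10, adjusted p = 0.019) and 1 fell (Cst12, -0.083, adjusted p = 0.011). Of 9 further transcription factor genes of Sertoli and somatic gonad cells, 1 rose (Zfpm1, 0.10, adjusted p = 0.012) and 0 fell.

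**Figure D3:**
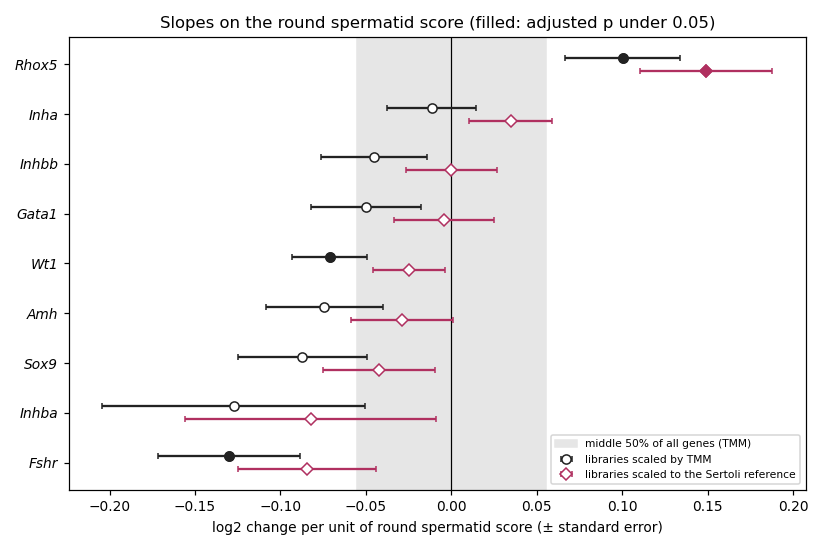
Slope of each gene on the round spermatid score in log2 change per unit (horizontal axis, bars show the standard error), with libraries scaled by TMM (circles) or to the Sertoli reference (diamonds), filled where the adjusted p was under 0.05. Rhox5 is the only gene on the right under both scalings (0.10 and 0.15), and the grey band holds the middle 50% of all genes, from -0.055 to 0.056.

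Rhox5 relative to the Sertoli reference stood at 0.186, 0.110 and 0.0995 times the reference mean in wild-type replicates 1, 2 and 3. It stood at 0.126, 0.170 and 0.101 times in Piwil4WT/R264W testes and at 0.157, 0.182 and 0.214 times in Piwil4R264W/R264W testes. On this scale the Piwil4R264W/R264W and wild-type ranges overlapped, because wild-type replicate 1 had the second highest ratio of all. With the score in the fit, the log2 change of Rhox5 in CPM between Piwil4R264W/R264W and wild-type was 0.51 (SE 0.14, unadjusted p = 0.0039 and adjusted p = 1 by edgeR), beside 2.57% of all genes at an unadjusted p under 0.05. Against Piwil4WT/R264W it was 0.33 (SE 0.14, unadjusted p = 0.043, adjusted p = 0.9996), beside 3.18% of all genes. This change was 0.17 without Piwil4WT/R264W replicate 1 (unadjusted p = 0.261) and 0.48 without Piwil4WT/R264W replicate 2, and the unadjusted p was over 0.05 without any other of these libraries and with DESeq2 (0.0601). Inhbb was the only other member at an unadjusted p under 0.05 in these fits, higher by 0.34 in Piwil4WT/R264W than in wild-type (SE 0.13, unadjusted p = 0.025, adjusted p = 0.961), beside 3.66% of all genes. The Inhbb change rested on its lowest and highest testes, and it was 0.19 without wild-type replicate 1 (unadjusted p = 0.201) and 0.11 without Piwil4WT/R264W replicate 1 (unadjusted p = 0.265). No member and no gene passed an adjusted p of 0.05 with edgeR in these 3 contrasts, whereas DESeq2 called 16, 14 and 4 genes, none of them a member.

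Because Rhox5 responds to androgen, the Leydig cell genes, which make androgen, were set beside it. The 8 Leydig genes summed to 426, 208 and 180 CPM in wild-type, 291, 278 and 181 CPM in Piwil4WT/R264W and 283, 445 and 446 CPM in Piwil4R264W/R264W testes. The lowest sums were in wild-type replicate 3 and Piwil4WT/R264W replicate 3, the testes with the lowest scores, and the genotypes overlapped. All 8 had positive slopes on the score and 2 passed the test, the steepest being Cyp17a1, a steroidogenic enzyme gene, at 0.70 (SE 0.14, adjusted p = 0.0030), and the flattest Hsd3b1 at 0.037. None was at 0 in all testes, and the part of Leydig cells in the Rhox5 level was not tested.

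**Figure D4:**
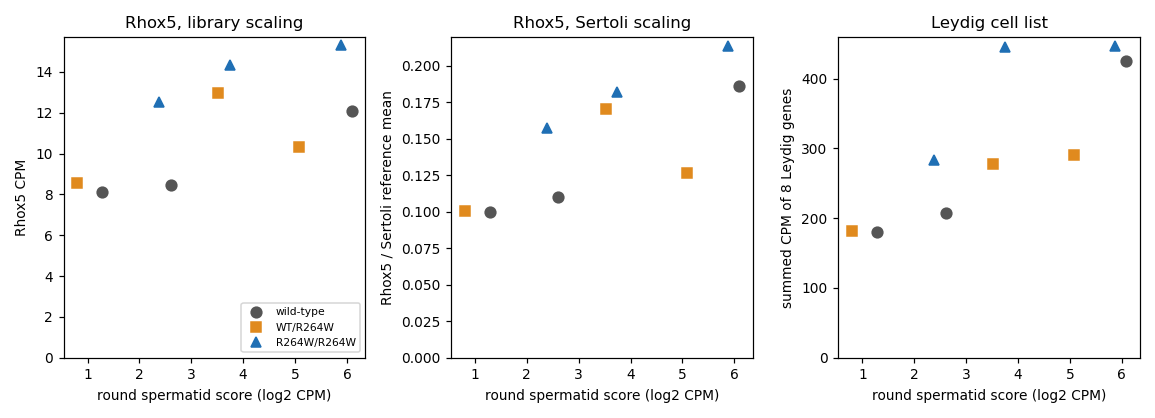
Rhox5 in CPM (left), Rhox5 as a multiple of the Sertoli reference mean (middle) and the summed CPM of 8 Leydig cell genes (right), each from 0 on the vertical axis, against the round spermatid score in log2 CPM, with a point per testis and a symbol per Piwil4 genotype. The lowest values of all 3 quantities are in wild-type replicates 2 and 3 and Piwil4WT/R264W replicate 3 (scores 2.61, 1.29 and 0.80). Piwil4R264W/R264W replicate 1 has a score of 2.39 but higher values (Rhox5 at 12.5 CPM and 0.157 times the reference). On the Sertoli scale wild-type replicate 1 (0.186) lies between the Piwil4R264W/R264W values.

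The X-linked Rhox cluster gave a reference for Rhox5 from its own family. Of 33 other Rhox genes in the table, 13 passed the filter on low counts, and none fell and 1 rose with the score: Rhox11, named after its values were seen, with 0.26 to 2.19 CPM and a slope of 0.55 (SE 0.081, adjusted p = 2.3e-04). Rhox8, also a Sertoli cell gene and the one with the highest mean CPM among them, taken without regard to transcript length, stood at 13.8, 20.3 and 23.3 CPM in wild-type, 17.5, 18.0 and 22.2 CPM in Piwil4WT/R264W and 14.6, 22.3 and 19.2 CPM in Piwil4R264W/R264W testes. Its groups overlapped, and its slope was -0.079 (SE 0.041, adjusted p = 0.171), opposite in sign to that of Rhox5. The Rhox2, Rhox3 and Rhox4 genes are near-identical copies whose reads the counting may have split, and their single values are uncertain.

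Other genes of the Sertoli cell gave the context of the 9. In the reference list 13 of 16 slopes were negative and 4 passed the test (Cst12, Aard, Cst9 and Mro, the last 3 named after their values were seen), with none higher and a median of -0.056. Cst12, a cystatin gene of Sertoli cells, was the lowest (-0.13, SE 0.017, adjusted p = 9.2e-05), and Tsx the highest (0.055, adjusted p = 0.143). Of 9 further transcription factor genes of Sertoli and somatic gonad cells, 0 passed the test in either direction, and the median was -0.042. Dmrt1, which keeps Sertoli cells male, had the lowest slope (-0.079, adjusted p = 0.071) and Zfpm1, a cofactor of GATA proteins, the highest (0.057, adjusted p = 0.158).

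Of 24 genes that transmit activin, inhibin, AMH and FSH signals, 21 could be tested, and 5 fell and 1 rose with the score, with a median slope of -0.024. On the receptor side, Bmpr1a, a type I receptor also used by AMH, fell (-0.091, adjusted p = 0.0043), whereas Amhr2, the AMH type II receptor, had a slope of 0.0061 (adjusted p = 0.79). Acvr1c, an activin-type receptor at 0.11 to 0.94 CPM and so near the floor of 3 counts, had the highest slope of the list without passing the test (0.26, adjusted p = 0.135). Fst, which encodes follistatin, a binder of activin, had the lowest (-0.10, adjusted p = 0.323). Among the intracellular mediators, Smad2 (-0.071, adjusted p = 0.024) and Smad5 (-0.069, adjusted p = 0.040) fell. On the FSH side, Gnas, the stimulatory G protein subunit, fell (-0.067, adjusted p = 0.030), as did Creb1, a cAMP-responsive transcription factor (-0.080, adjusted p = 0.027), while Prkaca, a catalytic subunit of protein kinase A, rose (0.067, adjusted p = 0.0078). Bmpr1a, Amhr2, Smad2, Smad5, Gnas, Creb1 and Prkaca were named after their values were seen, and these genes are also expressed outside Sertoli cells. With libraries scaled to the Sertoli reference, 0 of the 21 tested genes fell and 1 rose (Prkaca, 0.11, adjusted p = 0.0013 by edgeR). The median slope of the list was then 0.024.

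**Figure D5:**
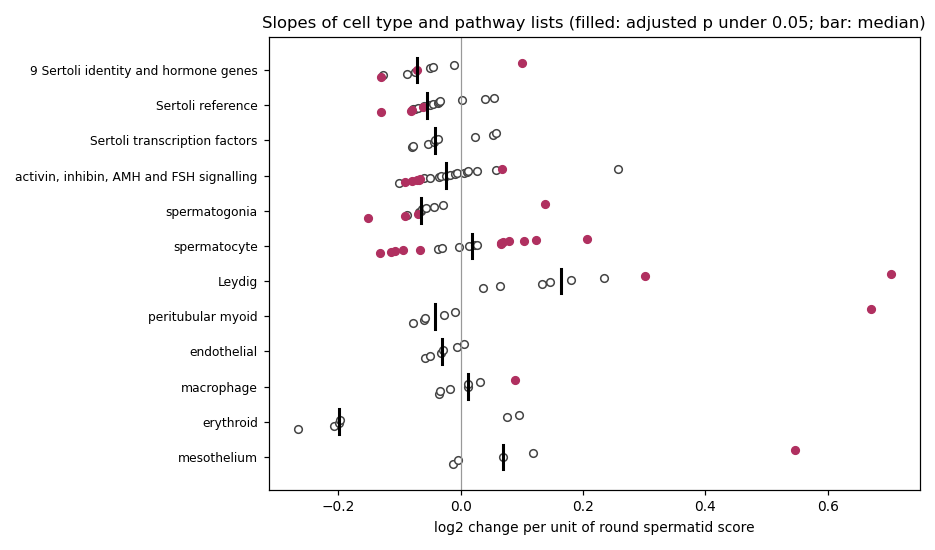
Slope on the round spermatid score in log2 change per unit (horizontal axis) for every tested gene of the Sertoli, pathway and other cell type lists (rows), with filled points where the adjusted p was under 0.05 and a bar at the median of each list. The medians of the 9 genes (-0.071) and of the Sertoli reference (-0.056) lie to the left of 0, and that of the Leydig list (0.16) to the right.

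Other cells of the testis were read in the same fit. Slopes of endothelial genes ran from -0.059 (Pecam1) to 0.0047 (Emcn) and none of 6 passed the test. Those of peritubular myoid genes ran from -0.078 (Tagln) to 0.67 for Actg2, a smooth muscle actin gene and the only 1 of 6 to pass. The other 5 myoid slopes were negative, and which cells held the Actg2 transcripts was not tested. Among macrophage genes 1 of 7 rose (Csf1r, 0.089, adjusted p = 0.042) and the lowest was Cd163 (-0.036), and among 6 tested erythroid genes, from Hbb-bt (-0.27) to Alas2 (0.096), none passed. Of 5 mesothelial genes 1 rose (Muc16, 0.55), and the lowest was Msln (-0.013). The cell source of the Muc16 transcripts was not tested either. In the germ line, spermatogonial genes had a median slope of -0.065 over 11 tested, from Lin28a (-0.15) to Gfra1 (0.14), with 3 lower and 1 higher. Spermatocyte genes, 18 tested, ran from Dmc1 (-0.13), a gene of early meiotic prophase, to Pgk2 (0.21), with 5 lower and 7 higher.

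The genes whose profile over the 9 testes was most like the mean profile of the members were Eps15l1, Dvl3, Basp1, Ctnnb1 and Eml3. Likeness was the root mean square difference of log2 CPM after centring each gene, and it was 0.046 to 0.053 for these genes, where the mean profile itself had an SD of 0.188, among 14335 genes outside the lists with a mean of at least 1 CPM. For single members the nearest genes were Dmrta1 for Sox9 (0.049), Tnrc6a for Wt1 (0.035), Zfp36l2 for Gata1 (0.059), Tfe3 for Amh (0.059), Itih5 for Fshr (0.089), Gapdh for Inha (0.050), Casq2 for Inhba (0.156), Maged2 for Inhbb (0.052) and AU021092 for Rhox5 (0.110). The distances were widest for Inhba, the gene with the fewest counts, and for Rhox5. The profiles of these genes also had the widest spread of the 9 (SD 0.462 and 0.344 log2 units). The searches for single members were made among 14474 candidate genes.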

How the data were processed

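Whole-testis mRNA libraries (mRNA-seq kit, Illumina, paired-end) of 9 samples were grouped by the genotype in the labels. The authors deposited a table of 22337 genes with FPKM values, which they computed with StringTie (version 1.3.1) after read filtering with fastp (version 0.18.0), and with estimated counts, of which 89.2% were whole numbers. The submitters' processing notes name the build mm39. The aligner, the annotation and the counting tool are not given in the sources used here. The paper names DESeq2 for its comparisons.

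Estimated counts were rounded and tested in edgeR (version 4.0.16; R version 4.3.3). Low genes were removed by filterByExpr, TMM factors scaled the libraries, and a quasi-likelihood test was applied to each pair of genotypes, then to all 9 libraries with the genotype and the round spermatid score as terms. The score is the mean log2 CPM (prior count 1) of 20 genes, and a repeat of the fit scaled libraries to 16 Sertoli genes. P-values were adjusted by Benjamini-Hochberg over all genes tested, with a threshold of 0.05. All 9 members passed the filter, and exact permutation tests were two-sided. The other settings tried were DESeq2 (version 1.42.0), edgeR with the size factors of DESeq2, limma (version 3.58.1) with pseudocounts of 0.1 and 1 added to FPKM before log2 (mean of at least 0.5 FPKM), no filter, other scores and references, a replicate block and leaving out each library. Scripts were tested on simulated data.

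The members, the 14 marker and pathway lists and the score were chosen with earlier results of these data known. Genes named beside the members were the lowest and highest slope of each list, the other Rhox gene with the highest mean CPM and the nearest genes by profile, unless the text says otherwise. Inhba overlaps 2 genes on the opposite strand (B230303A05Rik and Gm48444), which are not in the table. Floors cover counting error only.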

Additional observations from a re-analysis of the deposited data

How the results depend on the processing

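Depth limited Inhba most (25 to 77 counts). No member was called between genotypes under any alternative. DESeq2 called 1 gene in Piwil4R264W/R264W against wild-type and 5 against Piwil4WT/R264W, and with the score 16, 14 and 4 genes in the 3 contrasts (Piwil4R264W/R264W against wild-type, against Piwil4WT/R264W, and Piwil4WT/R264W against wild-type). Of 13 alternatives, all kept the sign of the Rhox5 change between Piwil4R264W/R264W and wild-type (0.46 to 0.76). For the other 8 members in that pair the sign turned in 18 of 104 values and none was called. With 1 library left out, genes called with the score were 0 to 3 in Piwil4R264W/R264W against Piwil4WT/R264W and 0 to 1 in Piwil4WT/R264W against wild-type, and the Rhox5 change in the latter pair without the score ran from -0.0023 to 0.36.

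Same-numbered libraries deviated together in 2 of 9 pairs (r over 0.1, range -0.734 to 0.784). Differently numbered libraries did so in 10 of 18 pairs (range -0.81 to 0.804). The labels do not state that the numbers pair the samples. These correlations cannot decide it, because the round spermatid score also differed between the replicates of each genotype. With the replicate block, 0 members and 0 genes were called between genotypes, and with the score 0 members and 0, 2 and 0 genes. The block gave 0 members lower and 0 higher for the slope (2436 genes higher and 769 lower), and per Sertoli reference 1 member higher and 0 lower (3266 genes higher, 72 lower), with Gata1 at 0.0087 and Inhbb at -0.0058.

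The main slope fit called 2745 genes higher and 1294 lower. Limma on log2(FPKM + 0.1) and log2(FPKM + 1) called 0 members higher and 2517 and 2499 genes lower, and the score without the genotype called 0 members higher. The spermatocyte score called 0 members and 0 genes in either direction, with both scalings, and per Sertoli reference turned Inha to -0.86 and Inhbb to -2.0 per unit of that score. The spermatocyte score spanned only 0.162 units, so these slopes are not on the scale of the others (5.29 units). Of 17 alternatives the slope call was lost in 12 for Rhox5 (adjusted p 0.0084 to 0.49), 8 for Wt1 (0.0012 to 0.50) and 6 for Fshr (0.010 to 0.53). The sum of the reference left 53 genes lower per reference (102 in the main fit), and adding transcription factors to it put Inhbb at -0.0088.

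With each library left out, members called ranged from 0 to 5 lower and 0 to 1 higher, and genes from 322 to 2724 lower and 1662 to 3393 higher. Slopes ranged from -0.079 to 0.013 (Gata1), -0.039 to 0.044 (Inha) and -0.094 to 3.7e-05 (Inhbb), each turning positive without wild-type replicate 1. Per Sertoli reference, members ranged from 0 to 1 lower (Sox9, without Piwil4WT/R264W replicate 1) and 0 to 1 higher, genes from 31 to 346 lower and 1783 to 5738 higher, and slopes from -0.019 to 0.044 (Gata1), -0.058 to 0.0062 (Amh), -0.14 to 0.021 (Inhba) and -0.033 to 0.030 (Inhbb). The cause of these changes was not tested.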
